A study of Mus musculus with 6 samples.

Results

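Selenoproteins carry selenocysteine, a residue that contains selenium in place of the sulfur of cysteine. Levels of 10 selenoprotein mRNAs were followed in mouse liver: Gpx1, Gpx4, Txnrd1, Txnrd2, Selenop, Selenow, Selenof, Selenok, Dio1 and Msrb1. They were taken by gene symbol, counting older names of the same genes, and all 10 have a row among the 23474 Ensembl identifiers of the table. All 10 passed the filter on low values. The mouse has 24 selenoprotein genes, and the 14 others are given beside them.

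The livers came from 17-week-old male C57BL/6J mice. BT mice were fed, for 12 weeks from 5 weeks of age, a high-fat diet with 1.5% (w/w) Bangpungtongseong-san extract, a herbal medicine made of several plants and minerals, and HFD mice were fed the high-fat diet alone for the same time. The study fed 10 mice on each diet and asked about genes of lipid and glucose metabolism in fatty liver. Libraries of mRNA from 3 BT and 3 HFD livers were analysed here. There was no group on a normal diet, so each comparison is of BT with HFD, and both groups carry the effects of the high-fat diet. Whether each library holds RNA of 1 mouse or of several is not stated, and the p-values cover only the variation among the 6 libraries, part of which may be technical. Library codes in the labels share 1 letter among the BT libraries and another among the HFD libraries, so library set and diet cannot be told apart.

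Expression is in FPKM, fragments per kilobase of transcript scaled to the size of the library, so that levels of different genes can be compared. The lowest values put the depth at roughly 14 to 15.1 M fragments in BT libraries and 13.8 to 15.8 M in HFD libraries (M, fragments times 10 to the power 6). The defining hepatocyte genes Apoa1, Ttr and Trf were at 3003 FPKM or more in all 6 libraries, but Alb is listed at 0 in HFD replicate 3 and at 22791 FPKM or more in the others, so a listed 0 can be a failed estimate. Differences were tested on log2(FPKM + 1), which understates changes of low genes, with limma over the 10476 genes whose mean reached 1 FPKM. Adjusted p-values are Benjamini-Hochberg values over all of these, with a threshold of 0.05. Of the genes tested, 630 (6.01%) were higher and 768 (7.33%) lower with BT, a split that was 448 and 884 with median-of-ratios scaling, and 1361 and 542 when FPKM were rescaled to TPM with Alb and mt-Co1 left out of the sum. The median change of all genes tested was 0.07. The BT and HFD values did not overlap in 39.3% of genes tested.

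Selenocysteine is encoded by UGA, which in other mRNAs ends translation. A hairpin in the untranslated region downstream, the SECIS element, is bound by SECISBP2, which brings the elongation factor EEFSEC and the selenocysteine tRNA to the ribosome. When selenium is short, UGA can be read as a stop, and mRNAs in which it lies well before an exon junction can then be degraded. Liver takes up dietary selenium and secretes it in selenoprotein P for other tissues. Of the enzymes, the glutathione peroxidases GPX1 and GPX4 reduce peroxides, and GPX4 is the one that reduces lipid hydroperoxides within membranes and so restrains ferroptosis, an iron-dependent cell death.

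The coding sequences around the selenocysteine codon are shown because they define the family and set the close relatives side by side. They were read from the GENCODE M21 transcripts (GRCm38), 5′ to 3′ on the coding strand, with the selenocysteine TGA in capitals and up to 15 bases on either side. GENCODE annotates a selenocysteine codon in all 24 genes.
Gpx4: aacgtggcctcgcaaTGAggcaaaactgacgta
Gpx1: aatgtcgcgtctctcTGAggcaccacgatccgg
Gpx3: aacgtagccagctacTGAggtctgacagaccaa
Selenow: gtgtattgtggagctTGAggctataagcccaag
Selenoh: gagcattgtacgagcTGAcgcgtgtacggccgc
Selenop: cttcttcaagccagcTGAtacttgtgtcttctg
Txnrd1: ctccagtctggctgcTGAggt
Txnrd2: actgtgactggttgcTGAggc
Sephs2: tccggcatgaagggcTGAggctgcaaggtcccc
The line for Selenop is the first of its 10 codons. The codons lie on GRCm38 at chr10:80054737-80054739 (plus strand) for Gpx4, chr9:108339451-108339453 (plus) for Gpx1, chr2:84670381-84670383 (minus) for Selenoh and chr7:127273731-127273733 (minus) for Sephs2. Gpx4 shared 19 of 33 bases with Gpx1 and 20 of 33 with Gpx3, against 9 of 33 with Selenow. Txnrd1 and Txnrd2 shared 13 of 21. All of these counts include the TGA itself, on which the lines were aligned. The shorter lines of both reductases end where the coding sequence ends.

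**Figure D1:**
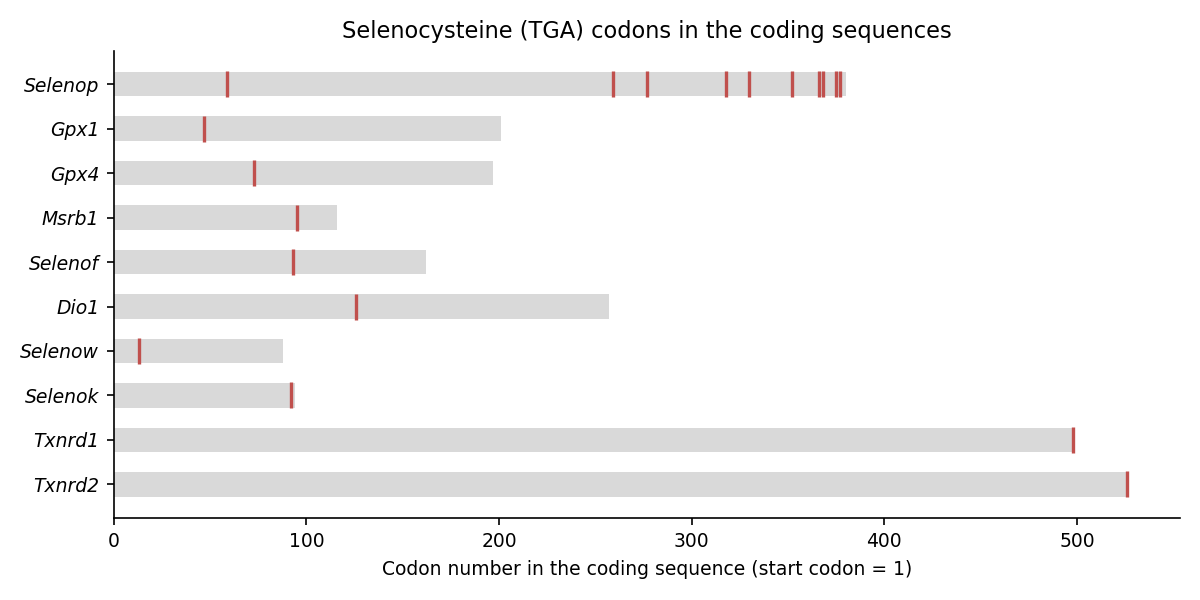
Coding sequences of the 10 mRNAs, ordered from the highest to the lowest mean level in HFD livers, in codons from the start codon (grey bars), with each selenocysteine codon as a red tick. 9 of the 10 have 1 such codon, at codon 73 of 197 in Gpx4 and codon 498 of 499 in Txnrd1, while Selenop has 10.

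The 10 mRNAs differ in where the codon sits. In Selenow it is codon 13 of 88, and in Gpx1 codon 47 of 201. In the reductases it is the last codon but 1, with 1 codon after it in Txnrd1 and in Txnrd2. In both families the residue belongs to the active site. In 8 of the 10 the first such codon lies before the last exon junction, by 342 bases in Gpx4, 105 in Gpx1, 357 in Selenop and 5 in Selenok. In Txnrd1 and Txnrd2 it lies in the last exon.

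Of the 10 mRNAs, 1 fell with BT and none rose. That 1 was Gpx4, about halved, and the other 9 did not pass the test. The background share of genes lower was 7.33%, so a single call among 10 is near what all genes gave. The median change of the 10 was -0.15, with 3 positive and 7 negative, against 0.07 for all genes tested. This tilt depended on the processing. With a per-library trend over transcript length and GC content taken out, Selenow (0.27) and Msrb1 (0.08) turned positive. Gpx1 (-0.008) and Selenof (-0.003) then lay near no change, and no positive change turned negative. In 5 of the 10 the BT and HFD values did not overlap, beside 39.3% of all genes tested. In 3 of these (Gpx1, Gpx4 and Selenok) BT was lower, beside 16.1% of genes tested, and in 2 (Txnrd1 and Selenop) BT was higher, beside 23.2%. With any other setting or with any 1 library left out, the counts were again 1 lower and 0 higher. At an unadjusted p under 0.05, 3 of the 10 were lower (Gpx4, Gpx1 and Selenok) and none higher, beside 14.4% lower and 18.1% higher among all genes tested.

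Gpx4 (chromosome 10, 80047166 to 80056439) had 214, 236 and 249 FPKM in BT replicates 1, 2 and 3, against 391, 538 and 439 FPKM in HFD replicates 1, 2 and 3. Each BT library lay below each HFD library, and the BT values were the more tightly grouped. The means were 233 ± 17.4 FPKM in BT livers and 456 ± 74.8 FPKM in HFD livers (SD, n = 3 each), 1.96-fold lower with BT. The log2 change was -0.96 ± 0.14 (limma's SE, adjusted p = 0.00812). With each of the 6 libraries left out in turn it passed every time, with changes of -1.06 to -0.83 and adjusted p of 0.00759 to 0.0455, and under the 10 other settings tried, with adjusted p of 0.005 to 0.0293. Its change was smaller, at -0.54, once a per-library trend over the length and GC content of transcripts was taken out. No exon of another gene overlaps its exons, but 1 pseudogene is named after Gpx4 in GENCODE, and reads shared with it could not be separated here.

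Gpx1, the abundant cytosolic peroxidase that clears hydrogen peroxide, had 1132, 1103 and 1044 FPKM in BT livers and 1519, 1391 and 1210.1 FPKM in HFD livers. The BT values lay below the HFD values, with a gap that was small beside the spread of the HFD libraries. Its log2 change was -0.32 (95% interval -0.60 to -0.04, adjusted p = 0.109), which did not pass. The ratio of Gpx4 to Gpx1 within a library does not depend on scaling between libraries. The ratio was 0.189, 0.214 and 0.238 in BT livers and 0.257, 0.386 and 0.363 in HFD livers, so it did not overlap either. An exact two-sided permutation test gave p = 0.1, the smallest that 3 against 3 libraries allow. Gpx1 and Gpx4 have longest transcripts of 1072 and 995 bases and GC contents of 57.2% and 60.2%.

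The third liver peroxidase mRNA, Gpx3, which encodes the secreted plasma enzyme made mainly by kidney, was low. It had 1.29, 1.34 and 2.34 FPKM in BT livers and 2.36, 3.89 and 4.84 FPKM in HFD livers. The groups did not overlap, although BT replicate 3 and HFD replicate 1 were almost equal. The log2 change was -0.81 ± 0.23 (adjusted p = 0.0511), just outside the threshold, and it passed without HFD replicate 1 (-1.03, adjusted p = 0.0231) and without BT replicate 3 (-0.98, adjusted p = 0.0462). It also passed with median-of-ratios scaling, quantile normalization, the replicate block and TPM without Alb and mt-Co1 (adjusted p = 0.0382, 0.0259, 0.0132 and 0.0492). With the length and GC trend taken out it did not (adjusted p = 0.101). The summed level of 8 markers of stellate cells and fibroblasts, most of it Dcn, was 83.8 to 107.7 FPKM in BT livers and 116.4 to 177.6 FPKM in HFD livers. The sum was not tested. Of the 7 markers tested, 2 fell and none rose, beside 7.33% lower and 6.01% higher among all genes tested. These were Col3a1 (-1.36, adjusted p = 0.0354) and Colec11 (-0.59, adjusted p = 0.031). Colec11 did not pass with the length and GC trend taken out (adjusted p = 0.0845). In that fit Col3a1 (-1.53, adjusted p = 0.0334), Reln (-0.44, adjusted p = 0.0383) and Pdgfrb (-0.57, adjusted p = 0.0477) passed. Dcn differed by -0.41 (adjusted p = 0.116), and Lrat is listed at 0 in every library. Their part in the Gpx3 result was not tested, and in whole liver fewer cells of a type and less RNA per cell cannot be told apart. Gpx2, the gut form, was at 0.127 FPKM or less in each library.

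**Figure D2:**
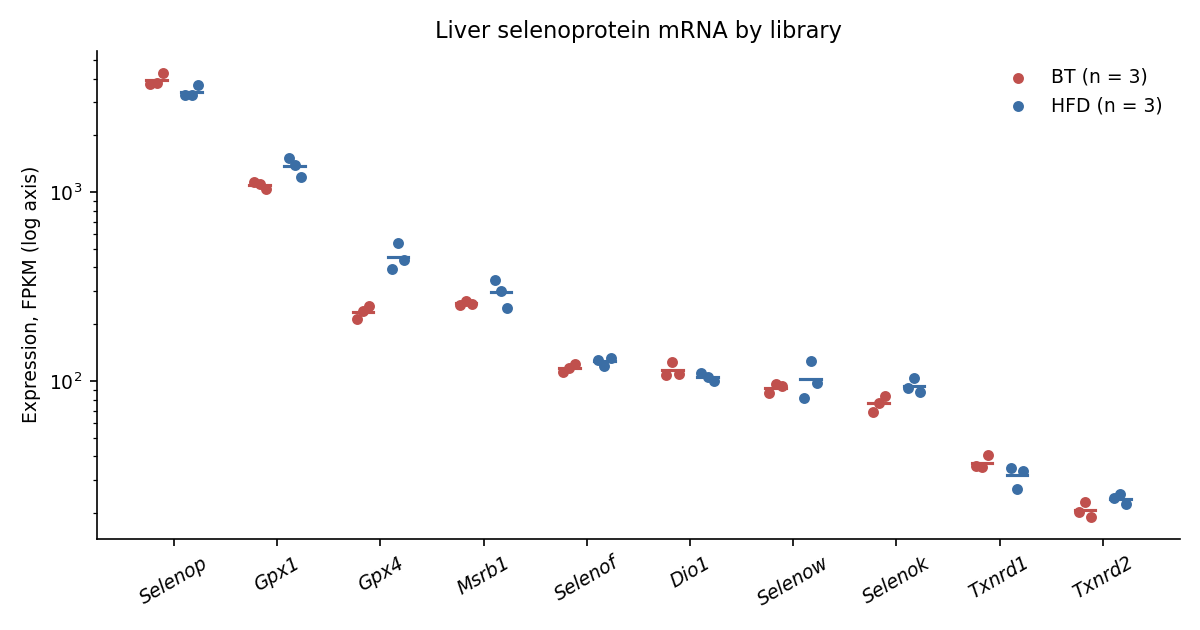
Expression in FPKM (log axis) of the 10 mRNAs in each library, BT in red and HFD in blue, with a bar at the mean of 3 libraries. Gpx4 is the member with the widest gap between diets, at 214 to 249 FPKM in BT livers and 391 to 538 FPKM in HFD livers.

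The thioredoxin reductases keep thioredoxin reduced with electrons from NADPH, TXNRD1 in the cytosol and TXNRD2 in mitochondria. Txnrd1 had 35.4, 35.3 and 40.6 FPKM in BT livers and 34.9, 26.9 and 33.5 FPKM in HFD livers. The lowest BT value exceeded the highest HFD value by little, and the change was 0.22 (95% interval -0.06 to 0.51, adjusted p = 0.25). Txnrd2 had 20.3, 23.1 and 19.2 FPKM in BT livers and 24.0, 25.4 and 22.3 FPKM in HFD livers, which overlap, with a change of -0.19 (95% interval -0.44 to 0.06, adjusted p = 0.258). Neither reductase passed. Txnrd3, a form best known from testis, was at 2.65 ± 0.300 FPKM in BT livers and 2.60 ± 0.128 FPKM in HFD livers (SD, n = 3 each). Their substrates were tested beside them. Txn1, the cytosolic thioredoxin, had 191, 182 and 198 FPKM in BT livers and 246, 354 and 286 FPKM in HFD livers. It fell by 0.61 on the log2 scale (adjusted p = 0.0284), and the mitochondrial Txn2 differed by -0.05 (adjusted p = 0.776). Txn1 missed the threshold without BT replicate 1, 2 or 3 (highest adjusted p = 0.105) and with the trend on length and GC content removed (adjusted p = 0.0937).

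Selenop, the selenium carrier of plasma, had the highest level of the 24. It had 3749.6, 3793 and 4284 FPKM in BT livers and 3259.65, 3255 and 3688 FPKM in HFD livers. All BT libraries stood above all HFD libraries, though the nearest pair differed by less than the spread within either diet. The means were 3942 ± 297 FPKM in BT livers and 3401 ± 248 FPKM in HFD livers (SD, n = 3 each), a change of 0.21 (95% interval -0.08 to 0.51, adjusted p = 0.28). Antisense exons of Ccdc152 overlap 15.4% of its exon bases, and without a stated strand setting reads of the pair cannot be told apart. Within each library Selenop made up 59.4%, 59.5% and 62.8% of the summed FPKM of the 24 genes in BT livers and 50.2%, 51.7% and 57.5% in HFD livers. The share of Gpx4 in that sum was 3.39%, 3.70% and 3.64% in BT livers and 6.02%, 8.54% and 6.84% in HFD livers. The sum itself overlapped between diets, at 6311 to 6826 FPKM in BT livers and 6295 to 6496 FPKM in HFD livers (exact two-sided permutation p = 0.8). Of the receptors that take up selenoprotein P, Lrp8, known from brain and testis, and Lrp2, known from kidney, were at 0.138 FPKM or less in every library. Lrp1, for which binding of selenoprotein P has been described in muscle, differed by 0.18 (adjusted p = 0.279).

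Selenof and Selenok encode proteins of the endoplasmic reticulum. SELENOF binds the folding sensor UGGT, and SELENOK is a small membrane protein that works with the palmitoyltransferase ZDHHC6 and with the machinery that removes misfolded proteins. Selenof had 113, 118 and 123 FPKM in BT livers and 129.9, 121 and 133 FPKM in HFD livers. These overlap, with a change of -0.11 (adjusted p = 0.429). Selenok had 68.4, 76.4 and 84.0 FPKM in BT livers and 92.0, 104 and 87.8 FPKM in HFD livers. Its groups did not overlap, and the change was -0.31 (95% interval -0.58 to -0.05, adjusted p = 0.105), which did not pass. GENCODE names 6 pseudogenes after Selenok, so its level is less certain. Of 8 partner genes in the endoplasmic reticulum, Selenos among them, all were tested and none passed at the adjusted threshold or at an unadjusted p under 0.05. Vcp, an ATPase that extracts misfolded proteins, differed by 0.20 and had the smallest p of the 8 (adjusted p = 0.302).

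Selenow encodes a small thioredoxin-like protein. It had 86.4, 96.3 and 94.1 FPKM in BT livers and 81.8, 127 and 98.2 FPKM in HFD livers. The BT values fell inside the range of the HFD values, and the change was -0.13 (95% interval -0.48 to 0.23, adjusted p = 0.598). Msrb1, which reduces oxidized methionine in proteins, had 253, 267 and 255 FPKM in BT livers and 344, 299 and 244 FPKM in HFD livers. Here the BT libraries agreed closely while the HFD libraries spread on both sides of them, with a change of -0.18 (adjusted p = 0.375). The ratio of Gpx4 to Msrb1 averaged 0.902 ± 0.0668 in BT livers and 1.58 ± 0.382 in HFD livers (SD, n = 3 each), and Gpx4 was below Msrb1 in each BT library and above it in each HFD library.

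Dio1 encodes the deiodinase that converts thyroxine to the active thyroid hormone. It had 107.9, 127 and 109.6 FPKM in BT livers and 110.1, 105 and 101 FPKM in HFD livers, which overlap. The change was 0.12 (95% interval -0.12 to 0.36, adjusted p = 0.444). Among 9 genes of thyroid hormone signalling tested, 3 fell and none rose, beside 7.33% lower and 6.01% higher among all genes tested. They were Ttr, the plasma carrier of thyroxine (-0.76, adjusted p = 0.0157), Me1, malic enzyme, a classical target of the hormone (-0.59, adjusted p = 0.0377), and Thra, a receptor (-0.47, adjusted p = 0.0432). Each of the 3 missed the threshold without BT replicate 1, 2 or 3, with a highest adjusted p of 0.0823, 0.123 and 0.163. Me1 and Thra also missed it with TPM scaling (adjusted p = 0.104 and 0.0809). Thrsp, of the same list, differed by -0.10 (adjusted p = 0.83). Hr, also of that list, was below the filter, at 0.118 to 0.153 FPKM in BT livers and 0.374 to 0.655 FPKM in HFD livers.

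In HFD livers the order of levels was Selenop, Gpx1, Gpx4, Msrb1, Sephs2, Selenof, Dio1, Selenow, Selenok, Selenot, Selenos, Txnrd1, Txnrd2 and Selenoo, and in BT livers Gpx4 came next after Sephs2 and Msrb1, at rank 5. Neighbours whose values overlapped in HFD livers were Msrb1 and Sephs2, Dio1 and Selenow, Selenow and Selenok, Selenos and Txnrd1, and Txnrd2 and Selenoo. In BT livers, Selenof overlapped with Dio1 and Selenos with Selenoo, and the other neighbours among the first 14 did not overlap.

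Of the 14 other selenoproteins, 9 were tested, and 1 of them fell and none rose, beside 7.33% lower and 6.01% higher among all genes tested. Selenoh, a nuclear protein with a thioredoxin-like fold, had 7.55, 5.81 and 5.88 FPKM in BT livers and 10.3, 11.9 and 10.5 FPKM in HFD livers, without overlap. It fell by 0.69 ± 0.13 on the log2 scale (adjusted p = 0.0157) and missed the threshold without BT replicate 2 (adjusted p = 0.0643). Sephs2, itself a selenoprotein, makes the selenium donor from which selenocysteine is formed. It had 393, 364 and 380.1 FPKM in BT livers and 356, 178 and 225 FPKM in HFD livers. All BT values exceeded the HFD values, but HFD replicate 1 was close to them, and the change of 0.64 ± 0.22 did not pass (adjusted p = 0.0869). It passed without HFD replicate 1 (0.92, adjusted p = 0.0104). Antisense exons of Gm44729 overlap 36.4% of its exon bases. Selenoo, a mitochondrial protein that attaches AMP to other proteins, differed by 0.33 (adjusted p = 0.0963), with antisense exons of Tubgcp6 over 26.7% of its exon bases. Selenom, an endoplasmic reticulum protein, differed by -0.45 (adjusted p = 0.0903), and it passed without HFD replicate 1 (adjusted p = 0.0485). Its means were 0.93 FPKM in BT livers and 1.65 FPKM in HFD livers, so it reached the filter only through the HFD libraries, where it is high. The level stands for roughly 8 to 11 fragments in BT libraries and 13 to 20 in HFD libraries. Selenos, Selenot, Selenoi and Txnrd3 differed by -0.11 to 0.13. Gpx2, Dio2, Dio3 and Selenon were below the filter at 0.649 FPKM or less in each library, and Selenov is listed at 0 in all 6.

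**Figure D3:**
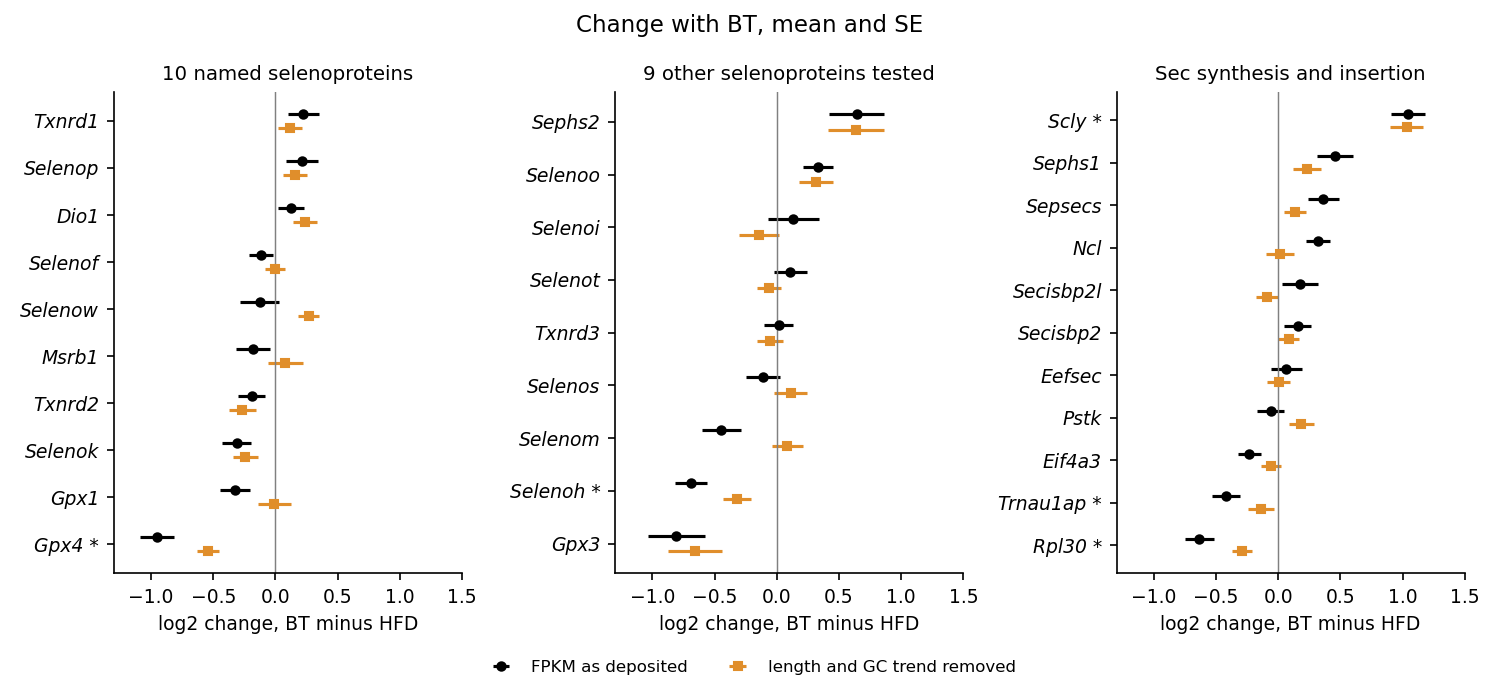
Log2 change on the log2(FPKM + 1) scale, BT minus HFD, with limma's SE, for the 10 mRNAs, the 9 other selenoproteins tested and 11 genes of selenocysteine synthesis and insertion. Black circles are from FPKM as deposited, orange squares after the length and GC trend of every library was taken out, and an asterisk marks adjusted p under 0.05 for the circles. Gpx4 (-0.96 and -0.54) and Scly (1.04 and 1.03) are past the threshold in both.

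Among 11 genes of selenocysteine synthesis and insertion, all tested, 1 rose and 2 fell, beside 6.01% higher and 7.33% lower among all genes tested. The riser was Scly, selenocysteine lyase, which releases selenium from selenocysteine so that it can be used again. It had 2.84, 2.28 and 2.41 FPKM in BT livers and 0.709, 0.888 and 0.524 FPKM in HFD livers. All BT libraries were well above all HFD libraries. The means were 2.51 ± 0.294 FPKM in BT livers and 0.707 ± 0.182 FPKM in HFD livers (SD, n = 3 each), 3.55-fold higher with BT. The log2 change was 1.04 ± 0.14 (adjusted p = 0.00644) with the pseudocount of 1 and 1.71 with a pseudocount of 0.1. All HFD values were below 1 FPKM, so Scly reached the filter on the mean only through the BT libraries, where it is high. It also passed without a filter. Scly passed whichever of the 6 libraries was left out. The level is low: it stands for roughly 74 to 90 fragments in BT libraries and 18 to 27 in HFD libraries.

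The members that fell were Rpl30, a ribosomal protein that also binds the SECIS element (-0.64, adjusted p = 0.0154), and Trnau1ap, which binds the selenocysteine tRNA (-0.42, adjusted p = 0.0431). Rpl30 missed the threshold without BT replicate 1 or 2 (highest adjusted p = 0.0729) and once the length and GC trend was removed (adjusted p = 0.0688). Trnau1ap missed it in 5 of the 6 fits that left out 1 library (highest adjusted p = 0.126), all but that without HFD replicate 3. With the length and GC trend taken out its change was -0.14 (adjusted p = 0.416), and it also missed the threshold with TPM scaling, no filter or no variance trend (adjusted p = 0.0977, 0.073 and 0.0503). Exons of other genes cover 24.8% of the exon bases of Rpl30. Secisbp2, Eefsec and Pstk, a kinase in the making of selenocysteine on its tRNA, differed by 0.16, 0.06 and -0.06 (adjusted p = 0.344, 0.74 and 0.717). Antisense exons of Ikzf5 overlap 58.8% of the exon bases of Pstk, so its level is less certain. Sepsecs, which completes that synthesis, differed by 0.36 (adjusted p = 0.0889) and Sephs1, a relative of Sephs2, by 0.46 (adjusted p = 0.0697).

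**Figure D4:**
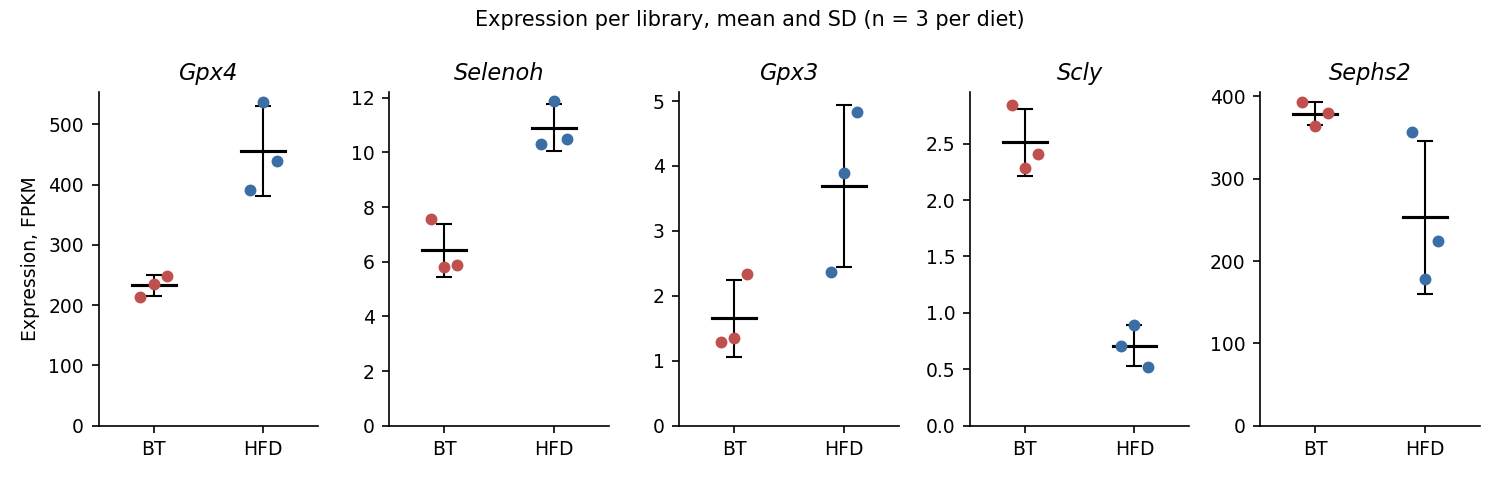
Expression in FPKM (linear axes from 0) of Gpx4, Selenoh, Gpx3, Scly and Sephs2 in each library, BT left and HFD right, with the mean and SD of 3 libraries. The diets do not overlap in any of the 5, the first 3 being lower and the last 2 higher in BT livers. Values did not overlap in 39.3% of all genes tested and in 10 of the 19 selenoproteins tested. Gpx3 and Sephs2 did not pass the test.

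Genes that share a task with GPX4 were read from 2 lists of 14 and 10 genes. Of 12 genes of ferroptosis and phospholipid peroxidation tested, 3 fell and none rose, beside 7.33% lower among all genes tested: the ferritin chains Fth1 (-0.57, adjusted p = 0.0191) and Ftl1 (-0.56, adjusted p = 0.0493), which store iron, and Pebp1 (-0.41, adjusted p = 0.0345), a partner of lipoxygenases. Aifm2, which encodes FSP1, a ferroptosis suppressor that acts without GPX4, had 28.4, 31.8 and 29.1 FPKM in BT livers and 21.6, 24.8 and 23.0 FPKM in HFD livers, a change of 0.35 that did not pass (adjusted p = 0.0554). Acsl4, which activates the polyunsaturated fatty acids that are peroxidized, differed by 0.27 (adjusted p = 0.19). Of 8 genes of glutathione synthesis and recycling tested, 1 rose and 1 fell, beside 6.01% higher and 7.33% lower among all genes tested. Oplah, which returns 5-oxoproline to glutamate, rose by 0.40 (adjusted p = 0.0366), and Ggct, which forms 5-oxoproline, fell by 1.09 (adjusted p = 0.0189). Gclc, Gclm, Gss and Gsr, which make and recycle glutathione, differed by -0.02, 0.25, -0.11 and 0.08 (adjusted p = 0.959, 0.193, 0.601 and 0.742). Slc7a11, which imports cystine, was at 0.0882 FPKM or less in each library. These calls depended on the libraries: the highest adjusted p with 1 library left out was 0.0868 for Fth1, 0.177 for Ftl1, 0.137 for Pebp1, 0.137 for Oplah and 0.0666 for Ggct. All 5 missed the threshold without BT replicate 1. With the length and GC trend taken out, Ftl1 (-0.20, adjusted p = 0.216), Pebp1 (-0.15, adjusted p = 0.299) and Oplah (0.35, adjusted p = 0.0956) did not pass, and Fth1 (-0.39) and Ggct (-1.24) did. Ftl1 also missed the threshold with a pseudocount of 0.1, median-of-ratios scaling and quantile normalization (adjusted p = 0.0502, 0.0517 and 0.0916). Fth1 and Pebp1 missed it with quantile normalization, Pebp1 with TPM scaling and Oplah with median-of-ratios scaling. Ftl1 and Pebp1 missed it with TPM scaling without Alb and mt-Co1. All 5 missed it without a filter on low values. Fth1, Ftl1 and Pebp1 have longest transcripts of 1494, 968 and 1240 bases. Exons of other genes cover 34.6% of the exon bases of Ftl1.

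In the thioredoxin and glutaredoxin list, 2 of 8 fell and none rose, beside 7.33% lower among all genes tested. All 8 changes were negative, while 59.2% of genes tested had a positive change. Those that fell were Txn1 and Glrx2, a mitochondrial glutaredoxin (-0.58, adjusted p = 0.0261). Glrx2 missed the threshold without BT replicate 1, 2 or 3 (highest adjusted p = 0.0888). Once the length and GC trend was taken out, Glrx2 (-0.74, adjusted p = 0.0355) and Txnip (-0.42, adjusted p = 0.0378) passed, and Txn1 did not. Of 6 tested homologs of the peroxidases and methionine reductases that carry cysteine in place of selenocysteine, none passed, by limma, and at an unadjusted p under 0.05 Gpx6 was higher and Msrb2 lower, beside 18.1% higher and 14.4% lower among all genes tested. Gpx6 had the smallest p, at 3.75, 2.15 and 6.53 FPKM in BT livers and 2.09, 0.976 and 0.942 FPKM in HFD livers (adjusted p = 0.0523). Msrb2, the mitochondrial methionine reductase, differed by -0.34 (adjusted p = 0.0577) and Msra by -0.20 (adjusted p = 0.181).

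Changes in these libraries varied with transcript length, and the selenoproteins span that range. Among all genes tested, the class with a longest transcript under 1000 bases had 43.6% of its genes lower and 1.55% higher, and its median change was -0.49. In the class of 4000 bases or more, 1.25% were lower and 10.2% higher, and the median was 0.21. Gpx4, at 995 bases, is longer than only 6.13% of genes tested, and its GC content is above that of 96.3%. Selenoh (783 bases), Selenom (707) and Selenow (736) are as short, and Txnrd1 (3622) and Selenoi (6803) are long. With each library's trend on length and GC content removed, Gpx4 changed by -0.54 ± 0.09 (adjusted p = 0.0177) and Scly by 1.03 ± 0.13 (adjusted p = 0.0107), and both passed. The change of Gpx1 became -0.01 (adjusted p = 0.975), that of Selenow 0.27 (adjusted p = 0.0975) and that of Selenoh -0.32 (adjusted p = 0.121). After removal the class under 1000 bases, which holds Gpx4, still had a median of -0.13, against 0.04, -0.001 and 0.003 in the classes above it. Gpx4 was then again the only one of the 10 past the threshold.

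**Figure D5:**
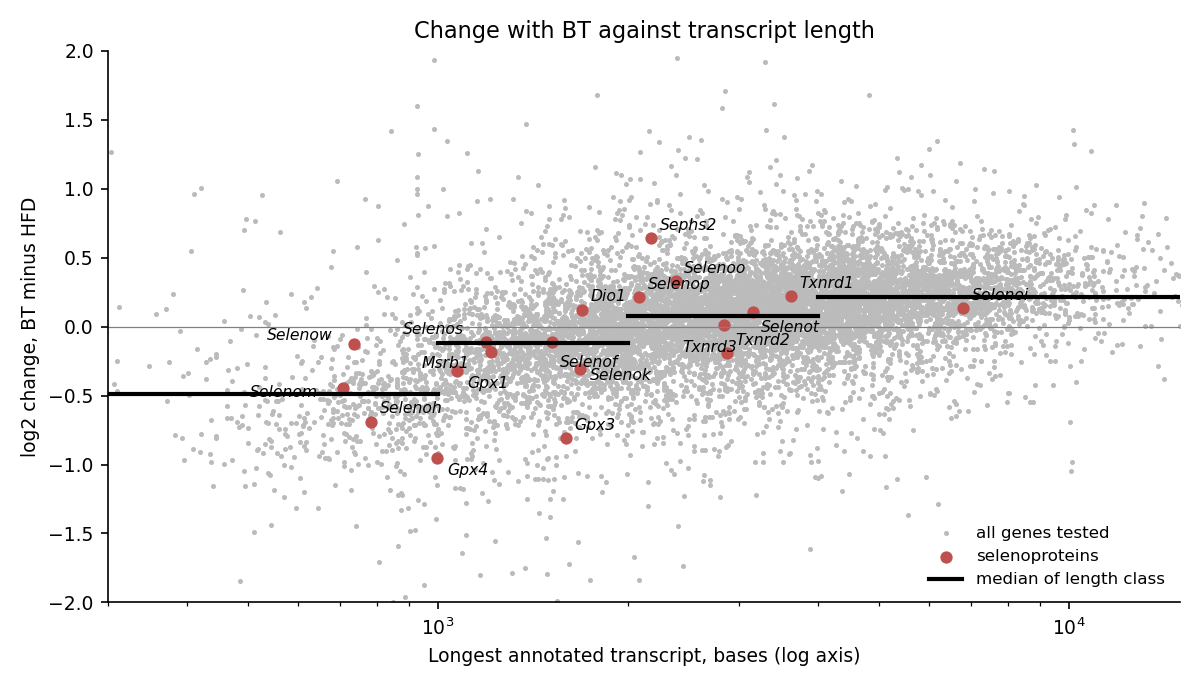
Log2 change, BT minus HFD, against the longest annotated transcript in bases (log axis) for genes tested (grey), the 19 selenoproteins tested (red) and the median of 4 length classes (black lines), with 61 genes outside the axes. The class under 1000 bases has a median of -0.49, and Gpx4 (-0.96) lies below it while Selenow (-0.13) lies above.

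Among the genes whose values over the 6 libraries lay nearest to those of Gpx4, by Euclidean distance of log2(FPKM + 1) centred on each gene's mean, were Higd2a, Dbndd2, Apoa2 and Rps23, at distances of 0.13 to 0.171. Their changes were -0.97 to -0.89. Longest transcripts of 3 of these 4 were 518 to 937 bases, and that of Dbndd2 was 3597. The likeness is over 6 libraries of 2 diets and describes these libraries alone.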

How the data were processed

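Per the labels' protocols, liver RNA was extracted with TRIZOL and made into libraries with the TruSeq RNA kit. The authors deposited FPKM for 23474 Ensembl genes, 1 column per library. Cufflinks 2.1.1, STAR 2.4.0 and CASAVA 1.8.2 are listed, per the submitters' processing notes, without saying what each did. For the genome build, annotation and strand: not given in the sources used here. Names, spans, longest transcripts and selenocysteine codons were looked up in GENCODE M21 (GRCm38), where 22671 identifiers were found. It may differ from the authors' build. Overlapping and pseudogene reads could not be separated.

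Groups came from the sample titles. Values were tested as log2(FPKM + 1), for genes whose mean reached 1 FPKM, with limma 3.58.1 in R 4.3.3 (eBayes with a variance trend, two-sided, 4 residual degrees of freedom). Intervals are limma's 95% intervals for a single gene. Every adjusted p is from these fits. In simulated data with the real means and variances for 10476 genes, 96% of changes of 1 and 99% of changes of 2 on the log2 scale were recovered, with 6.7% false calls. The simulation changed 200 genes, while 1398 were called in the real data, so these rates need not hold for the real data. Depth was estimated from the lowest cluster of FPKM times length in genes with 1 transcript over 1000 bases, and is rough. Trends on length and GC content were fitted per library as natural splines with 5 degrees of freedom. The alternatives, each tried alone, were a pseudocount of 0.1, no filter (genes above 0 in any library), a filter of 5 FPKM, TPM, median-of-ratios and quantile scaling, no variance trend, a replicate block, removal of the length and GC trend and leaving out each library. TPM scaling with Alb and mt-Co1 outside the sum was chosen after seeing the data.

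The members and lists were chosen with earlier results of these data known. The rule for named genes took the 24 selenoproteins, the called members of each list other than the cell type markers or else the one with the smallest p, and the 5 genes nearest to Gpx4, of which 1 is not reported here. Genes outside it that are named without a call (Secisbp2, Eefsec, Pstk, Sepsecs, Sephs1, Txn2, Aifm2, Acsl4, Msra, Msrb2, Gclc, Gclm, Gss, Gsr, Slc7a11, Lrp2 and Lrp8) and the cell type markers Apoa1, Trf, Alb, Dcn, Lrat, Clec4g, Spp1, Cfd and Adipoq were chosen after their values were seen. Thrsp, Hr, Txnip, Reln, Pdgfrb and Stab1 were likewise named after their values were seen. Python 3.11.15 and matplotlib 3.10.9 made the figures.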

Additional observations from a re-analysis of the deposited data

How the results depend on the processing

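Gpx4 and Scly kept their direction and passed in every alternative that tested them, and the count among the 10 mRNAs was 1 lower and 0 higher in all. Among all 24, leaving out 1 library gave 1 to 4 lower and 0 to 1 higher. Removing the length and GC trend left 1 lower, and quantile normalization and the replicate block each gave 1 higher, Sephs2. Over all genes, 630 were higher and 768 lower. These were 200 and 345 without a filter, where more genes are tested, and removing the length and GC trend gave 337 and 477. With TPM scaling that left Alb and mt-Co1 out of the sum, 1361 were higher and the median change of all genes was 0.19 in place of 0.07. Leaving out 1 library gave 49 to 855 higher and 124 to 814 lower. The smallest counts came without BT replicate 1, and counts were also more than 1.5 times smaller without BT replicate 2 (103 and 221), BT replicate 3 (207 and 382) and HFD replicate 2 (221 and 400). The cause was not tested. The numbers of the titles pair no samples by the labels. Deviations of same-numbered libraries correlated at 0.163, 0.097 and 0.147, each the highest for its libraries, a hint from the data only, and with the replicate block 859 genes were higher and 949 lower.

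No reversal touched a gene past the threshold. With the length and GC trend removed, the change was 0.27 for Selenow, 0.0805 for Msrb1, 0.0833 for Selenom, 0.11 for Selenos, -0.0558 for Txnrd3, -0.14 for Selenoi and -0.064 for Selenot. With TPM scaling without Alb and mt-Co1 it was 0.0126 for Selenow, 0.0248 for Selenof and 0.0245 for Selenos. Quantile normalization gave 0.0035 for Msrb1 and -0.091 for Txnrd3, and median-of-ratios scaling -0.0389 for Txnrd3. Leaving out 1 library gave ranges of -0.28 to 0.04 for Selenow, -0.21 to 0.0281 for Selenos, -0.12 to 0.29 for Selenoi, -0.0082 to 0.20 for Selenot and -0.0445 to 0.0743 for Txnrd3. With 3 libraries per diet, the intervals printed give the sizes of change that these data leave possible for genes that did not pass.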

Other observations

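Markers of other liver cells gave these values beside the selenoproteins. Of 8 markers of Kupffer cells and macrophages, all tested, none passed, and their summed level was 79.6 to 102.2 FPKM in BT livers and 77.0 to 97.1 FPKM in HFD livers. Of 6 sinusoidal endothelial markers tested none passed (43.2 to 53.6 FPKM in BT livers and 47.8 to 62.4 FPKM in HFD livers), and Clec4g is listed at 0 in all libraries. Stab1, one of the 6, differed by -0.48 (adjusted p = 0.0668). It passed once the length and GC trend was taken out (-0.70, adjusted p = 0.0257). Of 5 erythroid markers none passed, with 119.2 to 417.7 FPKM in BT livers and 196.1 to 332.9 FPKM in HFD livers. Spp1, the 1 cholangiocyte marker tested of 6, differed by -0.58 (adjusted p = 0.164). The 7 lymphocyte markers were below the filter, at sums of 2.32 to 4.32 FPKM in BT livers and 1.59 to 3.36 FPKM in HFD livers. Of 5 adipocyte markers only Cfd was tested (0.58, adjusted p = 0.359). Adipoq was at 1.40 FPKM in HFD replicate 1 and at 0.198 FPKM or less in the other libraries. Of the 8 hepatocyte markers Ttr fell and none rose, beside 7.33% lower and 6.01% higher among all genes tested.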
